A study of Mus musculus with 18 samples.

Results

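Chemokines are small secreted proteins that steer white blood cells, and they act through receptors coupled to G proteins on the cells that follow them. The genes described here are the 57 gene identifiers, of 53801 mouse genes in the deposited count table, whose symbol is Ccl, Cxcl, Ccr or Cxcr followed by digits and at most 1 letter, without 2 symbols that the rule leaves out. The rule reads the symbol and no measured value. The libraries are bulk RNA-seq of isolated whole pancreatic islets from mice aged 5 weeks on normal chow, in 4 groups: 4 libraries of wild-type (WT) males, 4 of males heterozygous for the S64F variant of MafA (written S64F/+), 5 of WT females and 5 of S64F/+ females. MafA is a transcription factor of insulin-producing beta cells, and the series asks how the variant acts in each sex. The labels give no strain and do not say whether each library came from its own animal, so all p-values measure only the spread between libraries, which may be technical.

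Chemokine ligands fall into families named for the spacing of their first cysteines. CC ligands act on Ccr receptors and mainly draw monocytes, macrophages, eosinophils and lymphocytes, and CXC ligands act on Cxcr receptors, with one branch that draws neutrophils and others that draw lymphocytes or progenitor cells. Some ligands are induced in inflammation, others are made at a steady level in lymphoid or barrier tissue. In the islet, resident macrophages, endothelial cells, stellate cells and the endocrine cells themselves are known sources.

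The libraries held 19317971 to 108659014 counts. Mafa, the gene that carries the variant, was at 811 to 1008 CPM (a gene's counts on a common library size, after TMM scaling by a trimmed mean of ratios) in WT males and 147 to 267 CPM in S64F/+ males, and at 492 to 803 CPM in WT females and 104 to 239 CPM in S64F/+ females. Its counts do not separate the alleles. The summed level of 4 genes of the Y chromosome (Uty, Kdm5d, Eif2s3y and Ddx3y) was 168 to 208 CPM in the male libraries and 0 to 4.07 CPM in the female ones. Together 9 endocrine marker genes made up 246379 to 330459 CPM in WT males and 167055 to 196566 CPM in S64F/+ males. In females they made up 203130 to 347553 CPM in WT and 198537 to 335573 CPM in S64F/+. The endocrine sum was thus lower in S64F/+ than in WT males without overlap, and the female groups overlapped. The 57 chemokine and receptor genes together made up 48.9 to 64.3 CPM in WT males, 94.4 to 138 CPM in S64F/+ males, 42.5 to 65.0 CPM in WT females and 57.1 to 87.6 CPM in S64F/+ females. The male groups did not overlap in this sum and the female groups did.

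Promoter sequences are shown for 6 of the members for which a RefSeq promoter was found. None was found for Ccl11, Ccl4, Ccl2, Ccl7, Cxcl16 or Ccr7. Ccl8 had the largest log2 fold change of the tested members in males. Ccl9 and Ccl3 lie in 1 cluster on chromosome 11 and moved in opposite directions in males. Cxcl1 and Cxcl2 lie near each other on chromosome 5 and share a receptor, and Cxcl12 rose in males together with its receptor gene. Each line holds the 200 bases before the RefSeq transcription start on GRCm38.p6, 5′ to 3′ along the gene's own strand. Capitals mark matches on either strand to TGCTGA, a part of the Maf recognition element, or to an NF-kB motif. The NF-kB motif is GGG and TTTCC with any 2 bases between them.
Ccl8 (chr11:82114985-82115184, plus strand): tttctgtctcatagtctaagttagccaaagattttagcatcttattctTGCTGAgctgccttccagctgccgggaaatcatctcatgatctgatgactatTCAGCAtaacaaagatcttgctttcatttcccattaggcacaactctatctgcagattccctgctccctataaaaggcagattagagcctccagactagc
Ccl9 (chr11:83578637-83578836, minus strand): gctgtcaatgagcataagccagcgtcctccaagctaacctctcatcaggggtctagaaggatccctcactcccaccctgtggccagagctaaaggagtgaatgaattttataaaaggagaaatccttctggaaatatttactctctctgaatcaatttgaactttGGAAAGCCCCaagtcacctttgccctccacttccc
Ccl3 (chr11:83649379-83649578, minus strand): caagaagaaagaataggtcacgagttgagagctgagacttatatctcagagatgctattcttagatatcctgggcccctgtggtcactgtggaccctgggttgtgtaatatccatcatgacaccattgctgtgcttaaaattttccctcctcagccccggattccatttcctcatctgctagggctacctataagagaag
Cxcl1 (chr5:90891045-90891244, plus strand): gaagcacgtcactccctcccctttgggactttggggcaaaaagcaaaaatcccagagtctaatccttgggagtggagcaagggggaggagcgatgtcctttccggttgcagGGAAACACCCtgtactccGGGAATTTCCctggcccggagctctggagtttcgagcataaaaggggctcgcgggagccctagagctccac
Cxcl2 (chr5:90903699-90903898, plus strand): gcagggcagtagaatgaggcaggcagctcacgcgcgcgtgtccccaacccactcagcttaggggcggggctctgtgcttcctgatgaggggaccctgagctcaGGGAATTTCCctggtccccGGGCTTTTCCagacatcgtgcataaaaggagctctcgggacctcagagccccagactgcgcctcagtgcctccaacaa
Cxcl12 (chr6:117168335-117168534, plus strand): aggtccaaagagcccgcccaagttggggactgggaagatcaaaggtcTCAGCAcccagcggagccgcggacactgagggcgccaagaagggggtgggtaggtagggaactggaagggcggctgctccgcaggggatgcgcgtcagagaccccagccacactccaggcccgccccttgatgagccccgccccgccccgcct

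A RefSeq promoter was found for 36 of the 52 member symbols, with 43 windows of 200 bases. TGCTGA was in 12 of the 43 windows (27.9%), against 13.2% of 32851 promoters of that length. The NF-kB motif was in 6 of the 43 windows (14%), those of Ccl20, Ccl9, Ccr3, Cxcl1, Cxcl2 and Cxcl3, against 1.18% of promoters. It was found at 2 places each in Cxcl1 and Cxcl2 and at 1 in Ccl9. In Ccl8 the first TGCTGA began 152 bases and the second, on the other strand, 100 bases before the start. Ccl3 held neither motif. The STAT6 motif, TTC and GAA with any 4 bases between them, was in 0 windows (4.53% of promoters), and the same pair with 3 bases between, read by other STAT factors, was in those of Ccr6 and Cxcl14, 2 of 43 (4.65%, against 5.49%). No match of one motif overlapped a match of another in the member windows. A match is a run of letters and not a shown binding site.

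Counts were low for most of the family. Of the 57 members, 12 had 0 counts in every library: Cxcr1, Cxcl15, Ccl27b, the copies of Ccl21 and copies of Ccl19, Ccl21 and Ccl27 on unplaced scaffolds. Ccl21b and Ccl21a share 310 of the 372 31-base words of Ccl21b, and how reads with several matches were counted is not given in the sources used here, so their 0 is uncertain. A further 19 members had counts but too few for the filter, and 26 were tested. By class, the filter passed 9 of 12 inflammatory CC ligands, 4 of 16 homeostatic or barrier CC ligands, 2 of 5 neutrophil-attracting CXC ligands, 1 of 3 interferon-inducible CXC ligands, 4 of 5 other CXC ligands, 4 of 10 CC receptors and 2 of 6 CXC receptors. Of the 26, 12 were at the filter's level in at least 4 libraries of every group. Ccl8, Ccl5, Ccl22, Ccr7 and Cxcr2 were there in the male S64F/+ group only, and Ccl2 in the S64F/+ groups of both sexes only. Ccl7 and Cxcl13 were there in no single group. All of these genes therefore entered the test through their high values.

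Levels of different genes were compared on the authors' FPKM (fragments scaled by gene length and library total). The length used far exceeded the longest annotated transcript for some members, with 10933 against 996 bases for Ccl27a and 13531 against 5627 for Cxcl12. For Ccl4, Ccl3 and Ccl11 it was equal, at 660, 766 and 1082 bases. The order of the members below therefore depends on the length used. In WT males the highest members were Ccl28 at 1.89 ± 0.839 FPKM, Ccl4 at 1.87 ± 0.753, Ccl3 at 1.85 ± 0.912 and Cxcl16 at 1.15 ± 0.312 (mean ± SD, n = 4). The first 3 lay closer together than their spread. In S64F/+ males Ccl11 stood first at 11.8 ± 2.16 FPKM, followed by Cxcl16 at 3.05 ± 0.539 and Cxcl12 at 2.91 ± 0.563 (n = 4), and the last 2 differed by less than their spread. WT females had Ccl28 at 2.18 ± 1.27, Ccl3 at 1.78 ± 0.848, Ccl4 at 1.57 ± 0.690 and Cxcl16 at 1.29 ± 0.332 FPKM (n = 5). S64F/+ females had Ccl4 at 2.13 ± 1.36, Cxcl16 at 1.93 ± 0.403, Ccl3 at 1.81 ± 0.942 and Ccl11 at 1.70 ± 1.34 FPKM (n = 5), again with neighbours inside their spread. Among receptors Cxcr4 was highest in each group, from 0.768 ± 0.253 FPKM in WT males to 1.59 ± 0.283 in S64F/+ males, and of the tested receptors Cxcr2 was lowest, at 0.00492 ± 0.00983 and 0.0857 ± 0.0484 FPKM in the same groups.

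**Figure D1:**
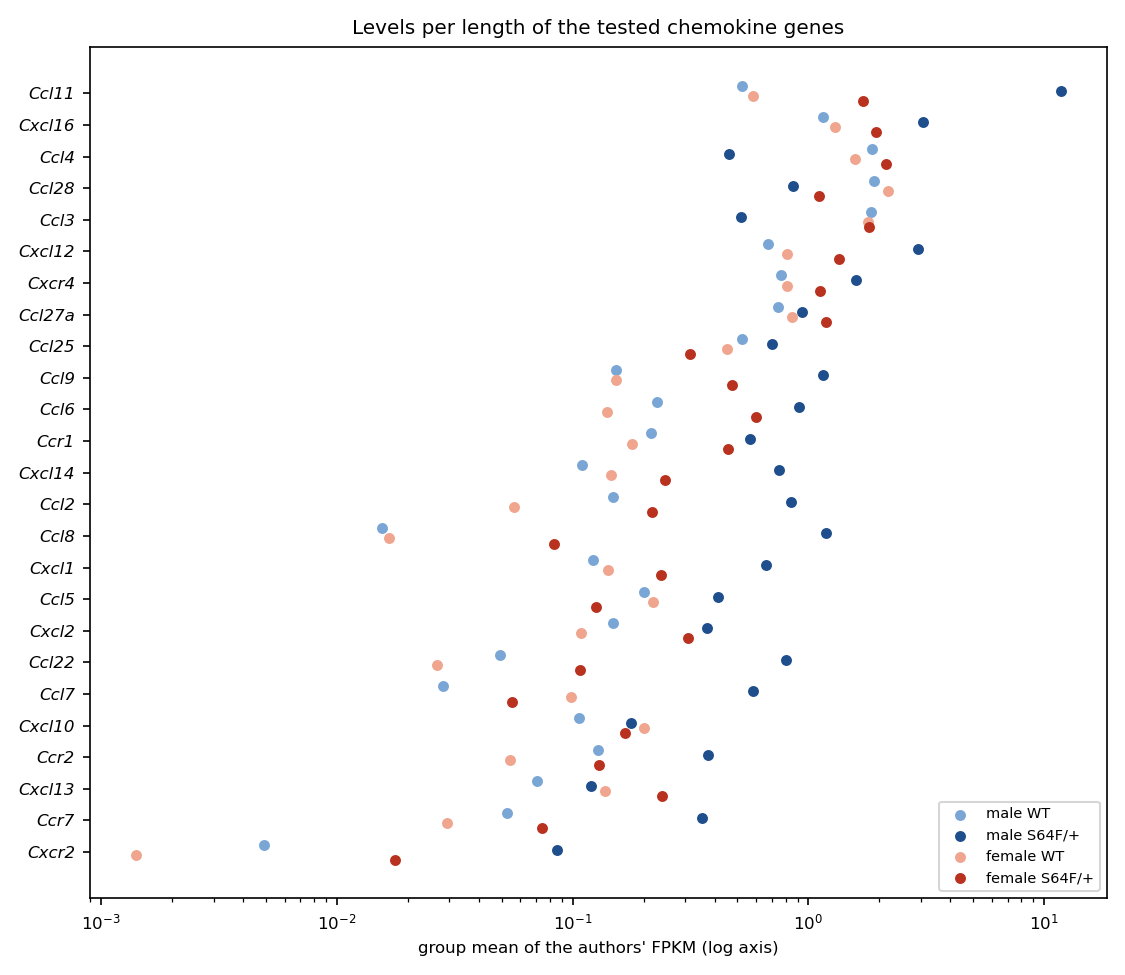
Group means of the authors' FPKM on a log axis for 25 of the tested members, ordered by their mean over all libraries, with 1 point per group. Ccl11 in S64F/+ males stands at 11.8 FPKM, above every other member, while Ccl4 and Ccl3 in S64F/+ males lie below their other 3 groups.

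Between S64F/+ and WT males, 16 of the 26 tested members rose and 3 fell. The members that rose included the ligands Ccl2, Ccl7, Ccl11, Ccl8, Ccl9, Ccl6, Ccl22, Cxcl1, Cxcl12, Cxcl14 and Cxcl16 and the receptors Ccr1, Ccr7, Cxcr2 and Cxcr4. Ccl3, Ccl4 and Ccl28 fell. Over all 18364 tested genes 15.4% rose and 12.3% fell, 27.6% in all. The median log2 fold change was 1.25 over the 26 members and -0.03 over all tested genes. Of the 12 members at the filter's level in every group, 7 rose and 1 fell. The test was edgeR's quasi-likelihood test with Benjamini-Hochberg adjustment over all tested genes, at a threshold of 0.05, and every adjusted p comes from it unless DESeq2 is named. In S64F/+ females 8 members rose and 0 fell by edgeR, where Ccl28 was the 1 member lower at an unadjusted p under 0.05 and the 1 that DESeq2 called lower. Of all genes 10.2% rose and 11% fell in females, 21.2% in all, and the median was 0.80 over the members and 0.02 over all genes. In both sexes 7 members rose, among them Ccl11, Ccl2, Ccl6, Ccl9, Ccr1 and Cxcl16, which is 43.75% of the male and 87.5% of the female rises of members. Of all tested genes 4.23% rose in both sexes, which is 27.6% of the male and 41.6% of the female rises, and these shares were not compared by a test. The ranges of the libraries were apart between S64F/+ and WT for 17 members in males, 14 with S64F/+ higher and 3 with it lower, where 35.1% of all tested genes were apart (17.8% higher and 17.3% lower). Ccl8, Ccr7, Cxcr2, Ccl7 and Ccl2, which entered the test through their high values, are among the 14. Of the 12 members at the filter's level in every group 7 were apart with S64F/+ higher and 1 with it lower. In females the ranges were apart for 3 members, Ccl27a, Ccl9 and Ccl2, all with S64F/+ higher. Ccl2 is not among those 12 members, of which 2, Ccl27a and Ccl9, were apart in females. Over all genes 5.28% were apart in females with S64F/+ higher and 6.36% with it lower, 11.6% in all.

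**Figure D2:**
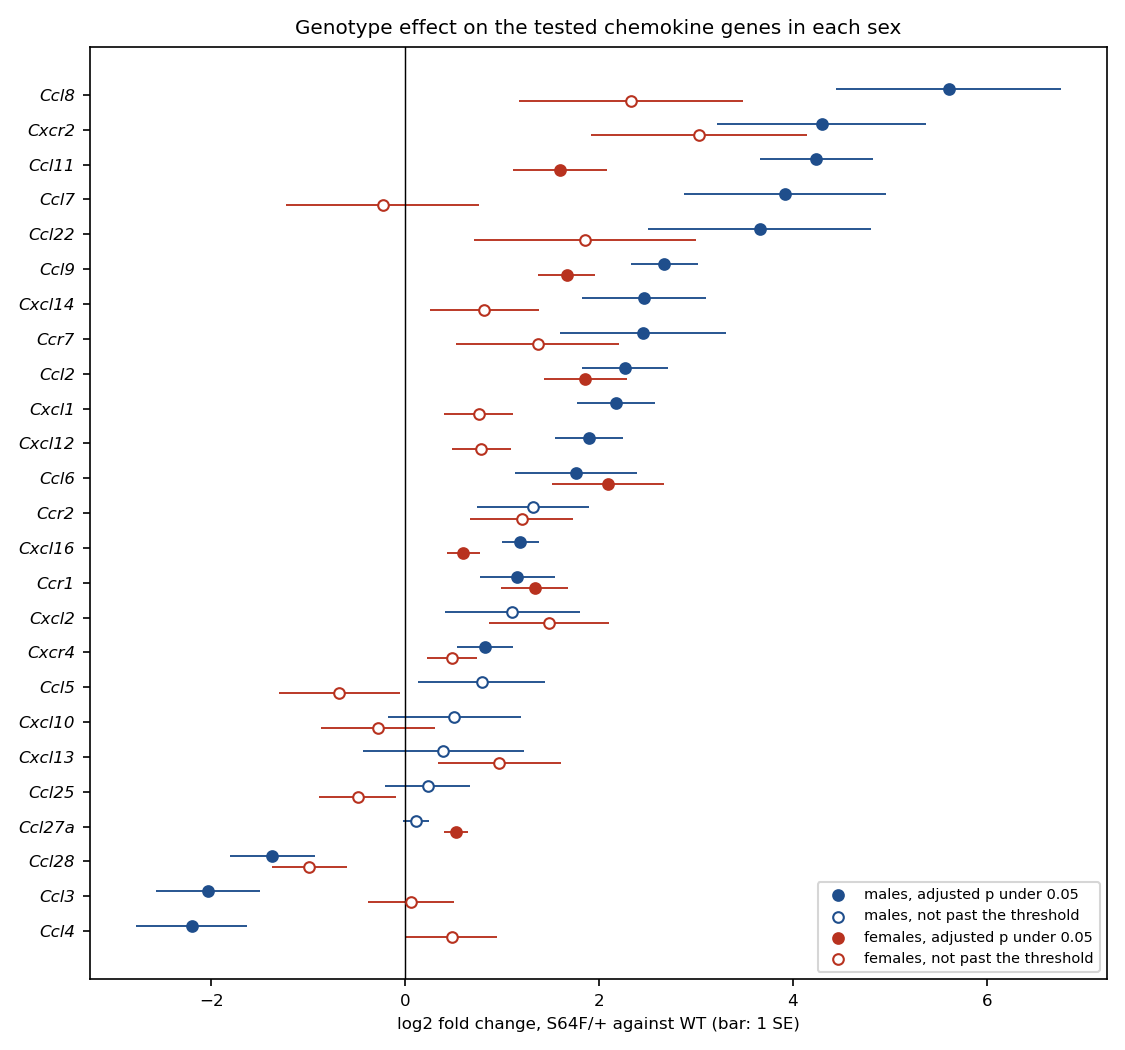
Log2 fold change of S64F/+ against WT (horizontal axis, bar 1 SE) for 25 of the tested members in males (blue) and females (red), filled where the adjusted p was under 0.05. In males 15 filled points lie right of 0 and 3 left of it, and in females 7 lie right of it.

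Ccl11 (eotaxin), the eosinophil-attracting ligand of Ccr3, had the highest FPKM of the inflammatory ligands in S64F/+ males. Ccl11 was at 0.387, 0.650, 0.632 and 0.722 CPM in WT males and 9.19, 10.1, 14.2 and 12.7 CPM in S64F/+ males. In females Ccl11 read 0.414, 0.988, 0.903, 0.403 and 0.425 CPM in WT and 1.74, 1.72, 4.65, 1.19 and 0.311 CPM in S64F/+. The male groups were far apart, and in females the S64F/+ libraries overlapped WT through library 5, the lowest of that group. The log2 fold change was 4.24 ± 0.58 (SE, adjusted p = 5.02e-05) in males and 1.60 ± 0.48 (SE, adjusted p = 0.0258) in females. Without female S64F/+ library 3, the highest of its group, the female value was 0.98 with an adjusted p of 0.103, and the female rise also failed the threshold without female WT library 1, 4 or 5 and in a fit of the female groups alone (adjusted p = 0.0853). Its receptor gene Ccr3 had 10 counts over all 18 libraries and was not tested.

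Ccl2 and Ccl7, ligands of the monocyte receptor Ccr2, lie beside Ccl11. Ccl2 was at 0.221, 0.241, 0.499 and 0.228 CPM in WT males and 1.26, 0.865, 1.80 and 1.91 CPM in S64F/+ males. In females Ccl2 read 0.108, 0.162, 0.0410, 0.166 and 0.0708 CPM in WT and 0.366, 0.22, 0.914, 0.327 and 0.348 CPM in S64F/+. Both sexes had ranges apart, with S64F/+ higher, and Ccl2 entered the test through its high values in the S64F/+ groups. Ccl2 had a log2 fold change of 2.27 ± 0.44 (SE, adjusted p = 0.000871) in males and 1.86 ± 0.43 (SE, adjusted p = 0.00442) in females. Ccl7 was at 0, 0.0241, 0.0333 and 0.0380 CPM in WT males and 0.528, 0.154, 0.446 and 0.562 CPM in S64F/+ males. In females Ccl7 read 0, 0.0295, 0.246, 0.0947 and 0.0236 CPM in WT and 0.0646, 0.0441, 0, 0.115 and 0 CPM in S64F/+. The male ranges were apart and the female ones overlapped, with WT library 3 the highest female value. The 4 WT male libraries held 3 counts of Ccl7 and the S64F/+ ones 87, a ratio of 17.5 after scaling for depth (exact 95% interval 5.78 to 86.3, counting error only). Ccl7 had a fitted log2 fold change of 3.92 ± 1.04 (SE, adjusted p = 0.00852) in males and -0.23 ± 1.00 (SE, adjusted p = 0.901) in females.

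Ccl8, which in the mouse acts on Ccr8, was at 0.154 CPM or less outside S64F/+ males. Ccl8 was at 0, 0, 0.0333 and 0 CPM in WT males and 1.06, 0.309, 0.568 and 0.244 CPM in S64F/+ males. In females Ccl8 read 0, 0, 0, 0.0474 and 0 CPM in WT and 0.0215, 0.0441, 0, 0.154 and 0 CPM in S64F/+. Each S64F/+ male library was above every WT male library, with library 1 the highest. WT males held 1 count and S64F/+ males 122, a ratio of 73.5 (exact 95% interval 12.9 to 2925, counting error only). In females 2 counts stood against 10, a ratio of 7.20 (1.53 to 67.6). The fitted log2 fold change was 5.61 ± 1.16 (SE, adjusted p = 0.00136) in males and 2.33 ± 1.16 (SE, adjusted p = 0.164) in females, and it was 7.65 in males without male WT library 3, the library that holds the WT count. Ccr8 had 12 counts in S64F/+ males and 5 in WT males.

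Ccl9 and Ccl6, mouse ligands of Ccr1 made largely by myeloid cells, rose in both sexes. Ccl9 was at 0.498, 0.409, 0.665 and 0.646 CPM in WT males and 3.05, 2.81, 4.89 and 3.42 CPM in S64F/+ males. In females Ccl9 read 0.252, 0.487, 0.697, 0.568 and 0.638 CPM in WT and 1.08, 2.47, 1.70, 1.94 and 1.06 CPM in S64F/+. No S64F/+ library overlapped WT in either sex. Ccl9 had a log2 fold change of 2.68 ± 0.34 (SE, adjusted p = 1.66e-05) in males and 1.67 ± 0.30 (SE, adjusted p = 0.00058) in females. Ccl6 was at 0.332, 1.25, 0.665 and 0.228 CPM in WT males and 2.47, 1.20, 3.47 and 1.59 CPM in S64F/+ males. In females Ccl6 read 0.162, 0.561, 0.369, 0.403 and 0.378 CPM in WT and 4.20, 1.01, 1.54, 0.711 and 0.458 CPM in S64F/+. For Ccl6 the groups overlapped in both sexes, in males through WT library 2 and in females through S64F/+ library 5. Ccl6 had a log2 fold change of 1.76 ± 0.63 (SE, adjusted p = 0.0448) in males and 2.09 ± 0.58 (SE, adjusted p = 0.0149) in females. In males 10 of the 18 libraries were each enough to end the call when left out (male WT 1, 3 and 4, male S64F/+ 1, 3 and 4, female WT 3, 4 and 5 and female S64F/+ 3), with the highest adjusted p, 0.126, without male WT library 4, and the value was 2.39 without male WT library 2. In females the value was 1.29 with an adjusted p of 0.0568 without S64F/+ library 1, the highest, and with the replicate number as a block the adjusted p was 0.0951.

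Ccl3 and Ccl4, the macrophage inflammatory proteins that attract white blood cells through CC receptors (for Ccl3 among them Ccr1), were lower in S64F/+ males. Ccl3 was at 0.719, 1.40, 2.46 and 1.37 CPM in WT males and 0.442, 0.154, 0.304 and 0.538 CPM in S64F/+ males. In females Ccl3 read 1.02, 0.575, 1.35, 2.63 and 1.51 CPM in WT and 1.44, 0.353, 1.12, 2.38 and 1.89 CPM in S64F/+. Ccl4 was at 0.83, 1.15, 2.03 and 1.18 CPM in WT males and 0.385, 0.124, 0.385 and 0.196 CPM in S64F/+ males. In females Ccl4 read 0.891, 0.664, 0.656, 1.99 and 1.18 CPM in WT and 0.818, 0.22, 1.54, 2.48 and 2.35 CPM in S64F/+. All 4 S64F/+ male libraries were below all 4 WT male libraries for both genes, and the female groups overlapped throughout. Ccl3 had a log2 fold change of -2.03 ± 0.54 (SE, adjusted p = 0.00848) in males and 0.06 ± 0.44 (SE, adjusted p = 0.946) in females. Ccl4 had a log2 fold change of -2.20 ± 0.58 (SE, adjusted p = 0.00783) in males and 0.48 ± 0.47 (SE, adjusted p = 0.512) in females. In S64F/+ females both genes were lowest in library 2 and highest in libraries 4 and 5. Ccl5, a T cell and monocyte attractant, was at 0.241 ± 0.289 CPM in WT males, 0.451 ± 0.225 in S64F/+ males, 0.262 ± 0.189 in WT females and 0.152 ± 0.0790 in S64F/+ females (mean ± SD, n = 4, 4, 5 and 5), and did not pass the test in either sex (0.79 ± 0.65 (SE, adjusted p = 0.407) and -0.68 ± 0.62 (SE, adjusted p = 0.483)). Without male WT library 2, which held 0.674 CPM, its male value was 2.22 with an adjusted p of 0.0262.

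Along chromosome 11 (GRCm38) these ligands form a pair of clusters. Ccl2, Ccl7, Ccl11, Ccl12 and Ccl8 lie at chr11:82035571-82116799, all on the plus strand. The 4 tested genes of this stretch rose in males. Ccl5, Ccl9, Ccl6, Ccl3 and Ccl4 lie at chr11:83525778-83664683. There Ccl9 and Ccl6 rose in males while Ccl3, the next member, and Ccl4 fell. Ccl12, a Ccr2 ligand that was not tested, had 4 counts in WT males and 25 in S64F/+ males, 17 of them in library 1, and 17 and 21 in WT and S64F/+ females.

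**Figure D3:**
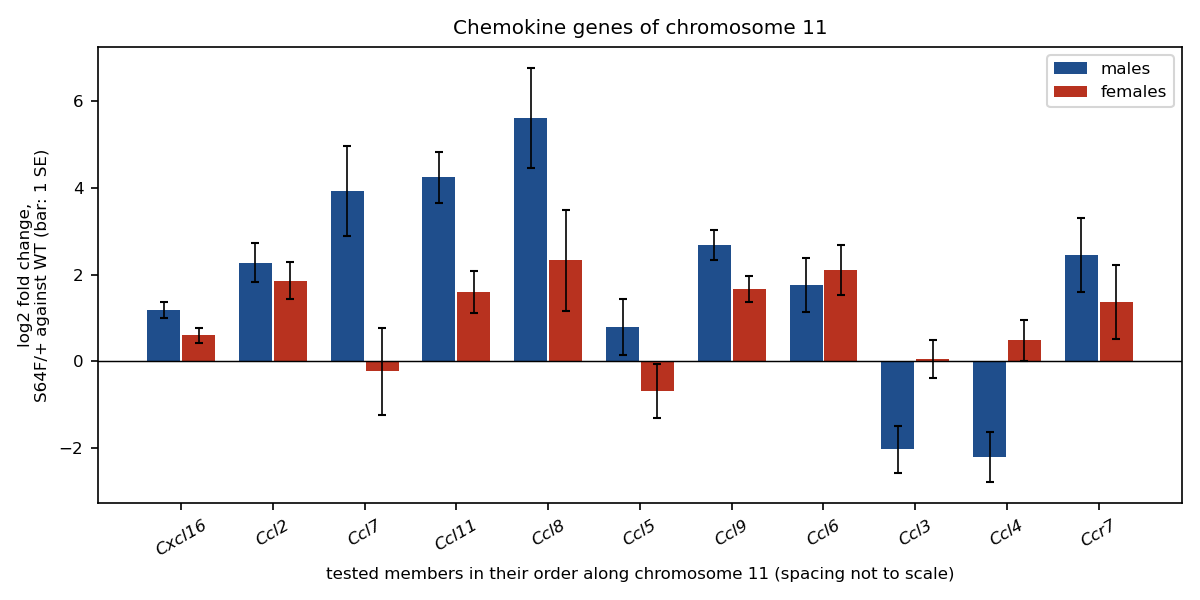
Log2 fold change of S64F/+ against WT with 1 SE for the 11 tested members on chromosome 11, in gene order but not to scale, in males (blue) and females (red). Ccl2 to Ccl8 stand above 0 in males, and Ccl3 and Ccl4 stand at -2.03 and -2.20.

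Of the homeostatic and barrier CC ligands, Ccl22 rose and Ccl28 fell in males, and Ccl27a rose in females. Ccl22, which dendritic cells and macrophages make and which acts on Ccr4, was uneven between libraries. Ccl22 was at 0, 0.409, 0.0998 and 0 CPM in WT males and 0.571, 0.247, 3.95 and 2.96 CPM in S64F/+ males. In females Ccl22 read 0, 0.103, 0, 0.0237 and 0.236 CPM in WT and 0.0430, 0.529, 0.623, 0.115 and 0.147 CPM in S64F/+. S64F/+ male libraries 3 and 4 were several times above libraries 1 and 2, and library 2 lay below WT library 2. The log2 fold change was 3.66 ± 1.15 (SE, adjusted p = 0.0252) in males and 1.85 ± 1.15 (SE, adjusted p = 0.275) in females. The male call ended without WT library 1, 3 or 4 or S64F/+ library 3 or 4, with the highest adjusted p without S64F/+ library 3 (3.05, adjusted p = 0.0719), and in a fit of the male groups alone (0.0503). The estimate was 5.53 without WT library 2. Ccr4 had 8 counts over all libraries.

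Ccl28, an epithelial ligand of Ccr10 and Ccr3, was the only tested member of its class that fell in males. Ccl28 was at 15.9, 7.27, 5.36 and 13.0 CPM in WT males and 4.57, 4.14, 4.32 and 2.91 CPM in S64F/+ males. In females Ccl28 read 4.58, 5.47, 9.35, 17.9 and 21.1 CPM in WT and 4.39, 5.51, 6.44, 7.25 and 5.79 CPM in S64F/+. The male ranges were apart but close, with WT library 3 just above S64F/+ library 1, and in females WT libraries 4 and 5 were far above the rest. Ccl28 had a log2 fold change of -1.37 ± 0.44 (SE, adjusted p = 0.0276) in males and -0.99 ± 0.39 (SE, adjusted p = 0.0797) in females. The male call ended without WT library 1 or 4 or any S64F/+ male library, at most with an adjusted p of 0.0922 without WT library 1. In females it was called without WT library 1 (-1.20, adjusted p = 0.0303) or 2.

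Ccl27a, another Ccr10 ligand, known from skin, was even between libraries. Ccl27a was at 8.96, 8.25, 8.85 and 8.24 CPM in WT males and 8.28, 10.7, 9.04 and 9.09 CPM in S64F/+ males. In females Ccl27a read 9.62, 11.1, 10.4, 8.45 and 7.18 CPM in WT and 11.3, 12.3, 16, 13.6 and 14.2 CPM in S64F/+. The female ranges were apart, with S64F/+ higher, and the male ranges overlapped. Ccl27a had a log2 fold change of 0.11 ± 0.14 (SE, adjusted p = 0.582) in males and 0.52 ± 0.12 (SE, adjusted p = 0.00442) in females, and the interaction was -0.41 ± 0.18 (SE, adjusted p = 0.171). Ccl25, a thymus and gut ligand of Ccr9, was at 3.70 to 4.41 CPM in 3 WT male libraries and 11.7 CPM in library 2, and at 3.67 to 4.29 CPM in 3 S64F/+ male libraries and 16.7 CPM in library 3. Females were at 3.86 to 6.36 CPM in WT and 2.97 to 4.28 CPM in S64F/+. It passed the test in neither sex (0.23 ± 0.44 (SE, adjusted p = 0.743) in males and -0.49 ± 0.40 (SE, adjusted p = 0.421) in females). Ccr10 had 104 counts over the 18 libraries, the most of any member that was not tested.

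Among the neutrophil-attracting CXC ligands, Cxcl1 rose in males. Cxcl1 was at 0.166, 0.409, 0.532 and 0.342 CPM in WT males and 1.46, 1.11, 2.19 and 2.00 CPM in S64F/+ males. In females Cxcl1 read 0.405, 0.280, 0.533, 0.545 and 0.260 CPM in WT and 0.71, 0.661, 1.16, 0.615 and 0.293 CPM in S64F/+. Every S64F/+ male library was above every WT male library, while the female ranges overlapped through S64F/+ library 5. Cxcl1 had a log2 fold change of 2.17 ± 0.40 (SE, adjusted p = 0.000553) in males and 0.76 ± 0.35 (SE, adjusted p = 0.137) in females. Cxcl2, its neighbour, was at 0.846 ± 0.293 CPM in WT males, 1.85 ± 1.31 in S64F/+ males, 0.625 ± 0.571 in WT females and 1.72 ± 0.982 in S64F/+ females (mean ± SD), and did not pass the test in males (1.11 ± 0.69 (SE, adjusted p = 0.26)) or females (1.48 ± 0.62 (SE, adjusted p = 0.0998)). With the replicate number as a block the female adjusted p of Cxcl2 was 0.00693, and without female WT library 4 it was 0.0242. Cxcl5, not tested, had 0 counts in WT males and 34 in S64F/+ males, 19 of them in library 4, and 2 counts in each female group. With the WT male group set to 3 counts, the male level was at least 6.82-fold higher.

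The receptor for these ligands, Cxcr2, is a marker of neutrophils that other myeloid cells also carry. Cxcr2 was at 0.111, 0, 0 and 0 CPM in WT males and 0.228, 0.216, 0.71 and 0.489 CPM in S64F/+ males. In females Cxcr2 read 0, 0.0148, 0, 0.0237 and 0 CPM in WT and 0, 0.22, 0.166, 0.0192 and 0.0733 CPM in S64F/+. S64F/+ males were above WT males in every library, and in both sexes WT was close to 0. WT males held 2 counts and S64F/+ males 78, a ratio of 23.5 (exact 95% interval 6.29 to 197, counting error only). In females 2 counts stood against 14, a ratio of 10.1 (2.32 to 91.4). The fitted log2 fold change was 4.30 ± 1.08 (SE, adjusted p = 0.00578) in males and 3.03 ± 1.11 (SE, adjusted p = 0.0605) in females, and without male WT library 1, which holds both WT counts, it was 7.24 in males. With DESeq2 Cxcr2 passed in females (3.41, adjusted p = 0.0347). Of 8 neutrophil markers 1 was tested, Csf3r, the receptor for G-CSF. It rose in males by 1.20 ± 0.40 on the log2 scale (adjusted p = 0.0295). Ly6g, which defines mouse neutrophils, had 0 counts in all libraries but female S64F/+ library 1, and the 8 markers summed to 0.114 to 0.83 CPM in WT males and 0.463 to 2.10 CPM in S64F/+ males.

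Cxcl12, the ligand of Cxcr4 and of the scavenging receptor Ackr3, is made by stromal and endothelial cells. Cxcl12 was at 5.53, 11.3, 12.1 and 9.04 CPM in WT males and 43.2, 28.4, 37.5 and 33.1 CPM in S64F/+ males. In females Cxcl12 read 7.73, 15.1, 17.9, 6.35 and 7.37 CPM in WT and 17.2, 25.8, 23.3, 16.5 and 10.8 CPM in S64F/+. Its male groups were far apart and its female groups overlapped. The log2 fold change was 1.89 ± 0.35 (SE, adjusted p = 0.000765) in males and 0.78 ± 0.30 (SE, adjusted p = 0.0797) in females, and in females the adjusted p was 0.0171 with the replicate number as a block, 0.0236 with DESeq2 and 0.0242 without WT library 3. Cxcr4, carried by white blood cells and endothelial cells, followed with a smaller difference. Cxcr4 was at 1.27, 2.65, 2.63 and 2.17 CPM in WT males and 3.11, 4.73, 4.12 and 3.62 CPM in S64F/+ males. In females Cxcr4 read 2.00, 3.01, 1.81, 1.97 and 2.22 CPM in WT and 1.94, 5.03, 3.91, 2.44 and 2.27 CPM in S64F/+. Its male ranges were apart, and its female S64F/+ values reached from the WT range in libraries 1, 4 and 5 to above it in libraries 2 and 3. Cxcr4 had a log2 fold change of 0.82 ± 0.29 (SE, adjusted p = 0.0407) in males and 0.48 ± 0.26 (SE, adjusted p = 0.195) in females. The male call ended without WT library 1 or 4 or S64F/+ library 2, 3 or 4, at most with an adjusted p of 0.123 without WT library 1.

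Cxcl14 and Cxcl16 also rose in males. Cxcl14 is a ligand of epithelium and stroma. Cxcl14 was at 0, 0.674, 0.266 and 0.570 CPM in WT males and 3.2, 1.64, 2.33 and 1.69 CPM in S64F/+ males. In females Cxcl14 read 0.315, 0.531, 0.903, 0.331 and 0.307 CPM in WT and 0.344, 1.28, 1.54, 0.846 and 0.22 CPM in S64F/+. Cxcl14 was apart in males and overlapped in females. The log2 fold change of Cxcl14 was 2.46 ± 0.64 (SE, adjusted p = 0.00786) in males and 0.82 ± 0.56 (SE, adjusted p = 0.329) in females. Cxcl16, a membrane-bound ligand of Cxcr6 that macrophages and endothelial cells carry, was among the more even members. Cxcl16 was at 4.98, 8.52, 5.92 and 7.71 CPM in WT males and 19, 13.9, 14.9 and 14.1 CPM in S64F/+ males. In females Cxcl16 read 6.67, 6.96, 10.1, 6.82 and 6.07 CPM in WT and 12.2, 12.3, 12.1, 11 and 7.71 CPM in S64F/+. It was apart in males, and in females WT library 3 lay above S64F/+ library 5. Cxcl16 had a log2 fold change of 1.19 ± 0.19 (SE, adjusted p = 0.000165) in males and 0.60 ± 0.17 (SE, adjusted p = 0.0161) in females. Cxcr6 was not tested and had 4 counts in WT males, 53 in S64F/+ males, 26 of them in library 1, and 5 and 9 in WT and S64F/+ females.

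**Figure D4:**
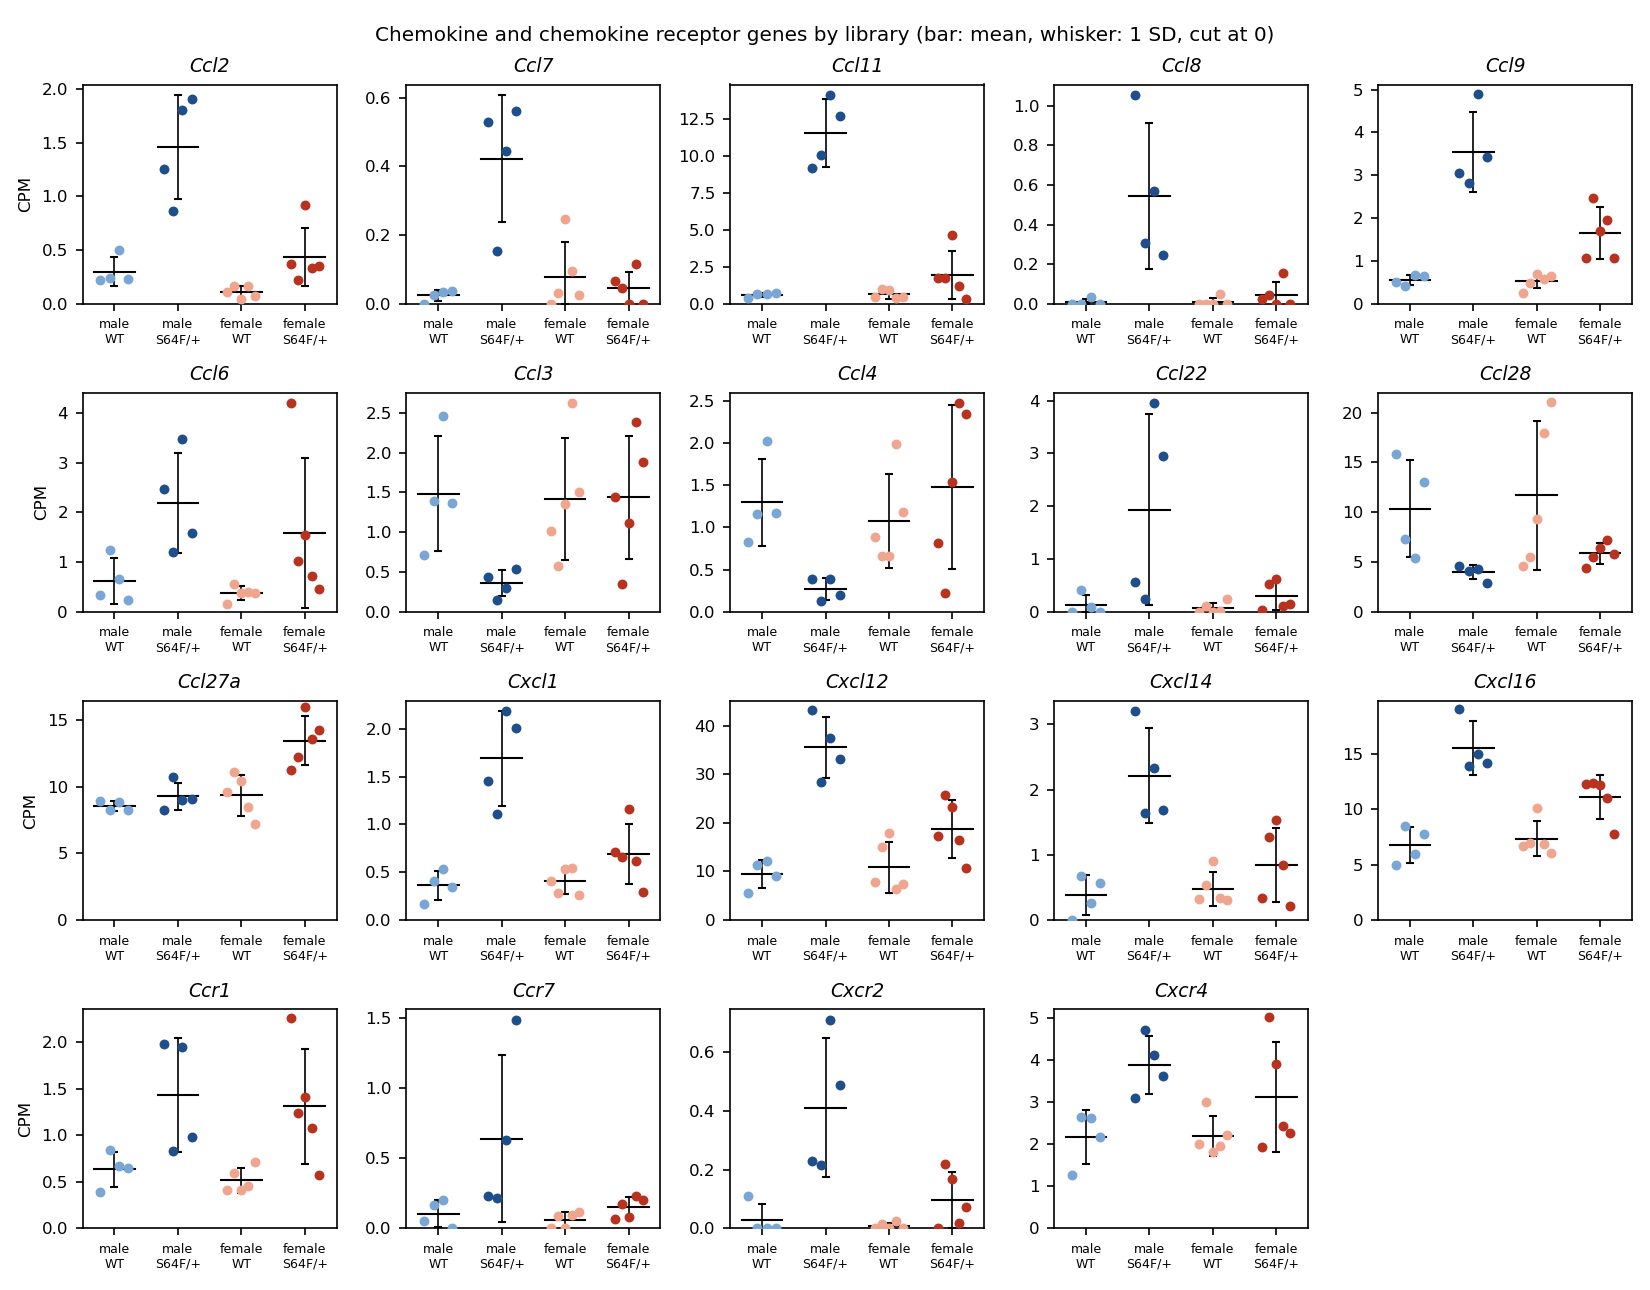
CPM of 19 members that passed a genotype or interaction test, 1 point per library, with the group mean and 1 SD, on axes that start at 0. Ccl11, Cxcl12 and Cxcl16 show S64F/+ males above all WT males, while Ccl22 is highest in S64F/+ male libraries 3 and 4 and Ccr7 in library 4.

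The tested CXC ligands Cxcl10 and Cxcl13 did not pass the test in either sex. Cxcl10, induced by interferon and bound by Cxcr3, was at 0.552 ± 0.266 CPM in WT males, 0.809 ± 0.309 in S64F/+ males, 1.07 ± 1.32 in WT females and 0.864 ± 0.225 in S64F/+ females (mean ± SD), with log2 fold changes of 0.51 ± 0.68 (SE, adjusted p = 0.633) in males and -0.28 ± 0.59 (SE, adjusted p = 0.782) in females. WT female library 5 held 3.33 CPM. Cxcl13, which draws B cells through Cxcr5, was at 0.0814 ± 0.0971 and 0.125 ± 0.0823 CPM in WT and S64F/+ males and 0.156 ± 0.110 and 0.280 ± 0.175 CPM in WT and S64F/+ females, with log2 fold changes of 0.39 ± 0.83 (SE, adjusted p = 0.77) and 0.97 ± 0.63 (SE, adjusted p = 0.301). Cxcl9 and Cxcl11, the other interferon-inducible ligands, had 57 and 41 counts in all and were not tested. Their receptor gene Cxcr3 had 11 counts in WT males and 43 in S64F/+ males, and 27 and 13 in WT and S64F/+ females.

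Of the CC receptors, Ccr1, carried by macrophages and T cells and bound by Ccl3, rose in both sexes. Ccr1 was at 0.387, 0.842, 0.665 and 0.646 CPM in WT males and 1.98, 0.834, 1.95 and 0.978 CPM in S64F/+ males. In females Ccr1 read 0.414, 0.590, 0.410, 0.450 and 0.708 CPM in WT and 2.26, 1.23, 1.41, 1.08 and 0.568 CPM in S64F/+. S64F/+ male library 2 and S64F/+ female library 5 lay inside the WT ranges of their sex. Ccr1 had a log2 fold change of 1.16 ± 0.39 (SE, adjusted p = 0.0323) in males and 1.34 ± 0.35 (SE, adjusted p = 0.00987) in females, and the male call ended without WT library 1, 3 or 4 or S64F/+ library 1 or 3, at most with an adjusted p of 0.106 without S64F/+ library 1.

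Ccr2 and Ccr7 varied widely between libraries. Ccr2, the receptor of Ccl2 and Ccl7 on monocytes, was at 2.16, 2.21, 1.36 and 2.13 CPM in WT males and 6.98, 3.95, 5.51 and 3.15 CPM in S64F/+ males. In females it read 0.432, 1.83, 0.492, 0.426 and 0.708 CPM in WT and 2.07, 4.50, 1.54, 0.846 and 0.403 CPM in S64F/+. The male ranges were apart and the female ones overlapped, yet Ccr2 did not pass the test (1.32 ± 0.58 (SE, adjusted p = 0.0997) in males and 1.20 ± 0.53 (SE, adjusted p = 0.118) in females). It passed in males with DESeq2 (adjusted p = 0.0473) and in a fit of the 2 male groups alone (0.00445), and in females with DESeq2 (0.0490) and without WT library 2 (0.0210). Ccr7 guides dendritic cells and lymphocytes to lymph nodes. Ccr7 was at 0.0553, 0.168, 0.200 and 0 CPM in WT males and 0.228, 0.216, 0.628 and 1.49 CPM in S64F/+ males. In females Ccr7 read 0, 0.0885, 0, 0.0947 and 0.118 CPM in WT and 0.0646, 0.176, 0.0831, 0.231 and 0.202 CPM in S64F/+. Ccr7 in S64F/+ male library 4 was far above the other 3 of its group, which still lay above every WT male library. The log2 fold change was 2.45 ± 0.86 (SE, adjusted p = 0.0394) in males and 1.37 ± 0.84 (SE, adjusted p = 0.268) in females, and the male value was 1.63 with an adjusted p of 0.193 without S64F/+ library 4. With 1 library left out Ccr7 passed the filter in 9 of 18 fits, and of those the call ended without each WT male library and without S64F/+ library 4. In a fit of the male groups alone the adjusted p was 0.0510. Of its ligands, Ccl19 had 2 counts in WT males and 20 in S64F/+ males (ratio 6.02, exact 95% interval 1.46 to 53.1), and the copies of Ccl21 had 0.

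Directly tested, the genotype effect differed between the sexes for 2 members, 1 higher and 1 lower, against 4.47% of all genes (2.87% higher and 1.6% lower). For Ccl11 the male effect exceeded the female one by 2.64 ± 0.73 (SE, adjusted p = 0.0478). For Ccl4 the male minus female difference was -2.68 ± 0.74 (SE, adjusted p = 0.047). Both calls stood close to the threshold. With 1 library left out each held in 4 of 18 fits, for Ccl11 without female WT 4 or female S64F/+ 1, 3 or 5 and for Ccl4 without male WT 2, female WT 4 or female S64F/+ 1 or 2. The highest adjusted p was 0.102 without female WT library 2 for Ccl11 and 0.104 without male WT library 3 for Ccl4, and the Ccl11 difference was 3.26 without female S64F/+ library 3. Ccl3 (-2.09 ± 0.69 (SE, adjusted p = 0.0814)), Ccl7 (4.15 ± 1.47 (SE, adjusted p = 0.0971)) and Cxcl1 (1.42 ± 0.53 (SE, adjusted p = 0.116)) did not pass. Ccl3 passed with DESeq2 (adjusted p = 0.0384) and without female WT library 4 (0.0313) or female S64F/+ library 2. For the members that rose in males and not in females, such as Ccl8 (3.28 ± 2.40 (SE, adjusted p = 0.423)), Ccl22 (1.81 ± 1.67 (SE, adjusted p = 0.537)), Cxcl12 (1.11 ± 0.46 (SE, adjusted p = 0.149)) and Cxcl14 (1.65 ± 0.85 (SE, adjusted p = 0.238)), a difference between the sexes was therefore not shown.

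Between WT males and WT females 0 members passed the edgeR test, 2 had an unadjusted p under 0.05, and DESeq2 called 0, where 2.36% of all genes passed in edgeR (1.73% higher and 0.637% lower in males). Ccl2 (1.36 ± 0.47 (SE, adjusted p = 0.13)) and Ccr2 (1.31 ± 0.56 (SE, adjusted p = 0.226)), both with a higher estimate in males, were those 2. Between S64F/+ males and S64F/+ females 10 members passed, where 16.1% of all genes did (8% higher and 8.12% lower in males). Ccl11, Ccl2, Ccl7, Ccl8, Ccl9, Cxcl1 and Cxcr2 were higher in males and Ccl3, Ccl4 and Ccl27a lower. Of the 12 members at the filter's level in every group, 2 were higher in males (Ccl11 and Ccl9) and 1 lower (Ccl27a). Ccl8 and Cxcr2 reached that level in S64F/+ males only, Ccl2 in the S64F/+ groups only and Ccl7 in no single group. With libraries scaled by their totals instead of TMM the split was 12 higher and 2 lower. Among the members that passed, the largest differences were those of Ccl8 at 3.45 ± 0.78 (SE, adjusted p = 0.0085), Ccl7 at 3.06 ± 0.82 (SE, adjusted p = 0.0187) and Ccl11 at 2.62 ± 0.48 (SE, adjusted p = 0.0031), and, downward, Ccl4 at -2.40 ± 0.56 (SE, adjusted p = 0.00939) and Ccl3 at -1.99 ± 0.52 (SE, adjusted p = 0.0163). This comparison shares its libraries with the genotype comparisons.

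The chemokine system has further members outside the symbol rule. Of 11 such genes 9 were tested, and in males Ackr3, which scavenges Cxcl12, rose by 1.03 ± 0.25 on the log2 scale (adjusted p = 0.00488) and Ackr1, which binds many inflammatory chemokines on venular endothelium and red cells, by 2.14 ± 0.74 (adjusted p = 0.0398). No gene of that list fell in males, and in females 0 passed the edgeR test, with 2 at an unadjusted p under 0.05 and 1 called by DESeq2. The fractalkine pair was at 16.9 to 26.9 CPM (Cx3cl1) and 4.53 to 5.34 CPM (Cx3cr1, a receptor of resident macrophages) in WT males and at 22.9 to 34.2 and 3.18 to 4.72 CPM in S64F/+ males, and did not pass in either sex. Of 27 genes that carry the signal of chemokine receptors, 10 rose and 7 fell in males, and 7 rose and 6 fell in females. For both lists, the shares over all tested genes were 15.4% up and 12.3% down in males, and 10.2% and 11% in females. Arrb1, an arrestin that uncouples receptors, rose in males by 1.52 ± 0.23 (adjusted p = 0.000133). Dock2, which drives migration of blood cells, rose in males by 1.77 ± 0.30 (adjusted p = 0.000236). Grk5, a receptor kinase, fell by 0.90 in males and 0.93 in females, and Rgs16, which shortens G protein signalling, fell by 1.10 in males and 2.03 in females on the log2 scale. Grk3, a related kinase, fell by 0.79 and Gnb1, a G protein subunit, rose by 0.33 ± 0.07 in females.

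Genes known to induce chemokines were read in the same way. Of 22 listed, 20 were tested, 8 rose and 1 fell in males, and 2 rose and 1 fell in females. Of all tested genes 15.4% rose and 12.3% fell in males, and 10.2% rose and 11% fell in females. Il4, a cytokine that induces Ccl11 and Ccl22 in other settings, was at 0 counts in all WT male libraries and at 2.74, 3.12, 2.31 and 3.57 CPM in the S64F/+ male ones. In females it was at 0 to 0.166 CPM in WT and 0.947 to 2.49 CPM in S64F/+, and it rose in both sexes (adjusted p = 1.27e-05 in males and 4.61e-05 in females). Il4 entered the test through its high values in the S64F/+ groups. Tlr4, a receptor for bacterial lipopolysaccharide, rose in males by 2.03 ± 0.33, and Nfkb2, an NF-kB subunit, by 0.91 ± 0.15 on the log2 scale. Il1b, an inflammatory cytokine, rose in females by 1.12 ± 0.22. Tlr2 fell in both sexes, by 0.93 in males and 0.76 in females. Ifng was at 0 counts in all 18 libraries.

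Markers of cells that carry or make chemokines were also counted. The counts below stand against rises of 15.4% and falls of 12.3% over all tested genes in males. In females these shares were 10.2% and 11%. In bulk tissue a change in the number of cells of a type and a change in RNA per cell cannot be told apart. Of 14 macrophage markers, 8 rose and 1 fell in males and 8 rose in females. Cd68, C1qb, C1qc and Csf1r had the smallest p of them in males, with log2 fold changes of 1.65, 1.24, 1.45 and 1.23, and in females Cd68, C1qb and C1qc rose by 0.97, 0.88 and 0.86, while C1qa fell in males by 0.86. The summed level of the 14 was 198 to 294 CPM in WT males, 277 to 390 in S64F/+ males, 219 to 268 in WT females and 316 to 440 in S64F/+ females. Of 8 dendritic cell markers, 7 rose in males, led by Itgax, Batf3, Flt3 and Zbtb46, and 1, Itgax, in females, with sums of 13.0 to 18.6, 43.9 to 47.8, 15.7 to 22.9 and 17.9 to 29.7 CPM in the same order. Of 10 stellate cell and fibroblast markers, 9 rose in males, led by Cspg4, Pdgfrb, Rgs5 and Col1a2, and 0 in females by edgeR or DESeq2 (1 at an unadjusted p under 0.05), with sums of 229 to 551, 1573 to 2383, 299 to 850 and 267 to 1048 CPM. Of 10 endothelial markers, 7 rose in males, led by Pecam1, Tie1, Plvap and Cdh5, and 0 in females by edgeR or DESeq2 (4 at an unadjusted p under 0.05), with sums of 510 to 712, 956 to 1142, 594 to 839 and 626 to 885 CPM. The interaction test passed for 2 of 14 macrophage, 2 of 8 dendritic, 2 of 10 stellate and 4 of 10 endothelial markers. All had a positive male minus female difference, where 4.47% of all genes passed (2.87% higher and 1.6% lower). For the other markers of these lists a difference between the sexes was not shown. No macrophage, dendritic, stellate or endothelial marker was at 0 in any group. Of the eosinophil markers, Ear2, which some macrophages also express, rose in both sexes. It was at 0 to 0.0962 CPM in WT males and 7.95 to 10.7 CPM in S64F/+ males, and entered the test through its high values in the S64F/+ groups. Epx, which defines eosinophils, had 0 counts in 17 of the 18 libraries and 0.0405 CPM in S64F/+ male library 3. The part of these cell markers in the changes of the chemokine genes was not tested.

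**Figure D5:**
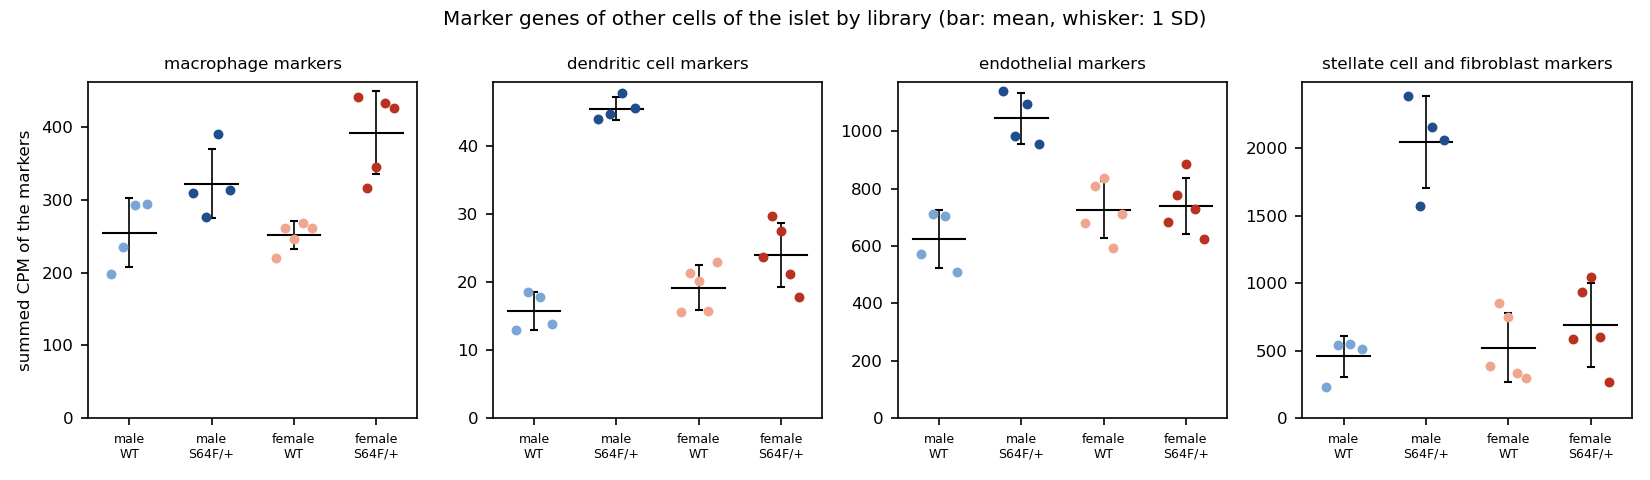
Summed CPM of marker genes of macrophages, dendritic cells, endothelial cells and stellate cells or fibroblasts, 1 point per library, with the group mean and 1 SD. In S64F/+ males the dendritic, endothelial and stellate sums lie above all other libraries, at 43.9 to 47.8, 956 to 1142 and 1573 to 2383 CPM, and the macrophage sums reach 440 CPM in S64F/+ females.

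The other marker lists were counted too, and stand against the same shares over all tested genes (15.4% up and 12.3% down in males, 10.2% and 11% in females). Of 8 T and NK cell markers 3 were tested and Cd4, which macrophages can also express, rose in both sexes. Of 6 B cell markers 3 were tested and Cd79a fell in both sexes. Of 6 mast cell markers 1 was tested, Kit, and it rose in males. Of 4 lymphatic endothelial markers 2 rose (Pdpn, Prox1) and 1 fell (Lyve1) in males, and 1 rose (Prox1) and 2 fell (Lyve1, Flt4) in females. Of 8 ductal markers 5 rose in males (Spp1, Sox9, Krt19, Muc1 and Cftr) and 3 in females (Spp1, Sox9 and Epcam), of 4 mesothelial markers 1 (Msln) fell in each sex, and of 8 acinar markers 0 passed in either sex by edgeR or DESeq2 (0 at an unadjusted p under 0.05). Of 9 endocrine markers 6 fell in males, led by Slc2a2, Ins1, Pdx1 and Iapp, and 3 rose and 4 fell in females, led by Gcg and Sst upward and Pdx1 and Slc2a2 downward.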

How the data were processed

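RNA from isolated islets was sequenced paired-end in 18 libraries. The deposited counts are whole reads per gene, 1 column per library, made by the authors. Tools named without a version in the submitters' processing notes are FastQC, MultiQC, STAR, featureCounts and DESeq2, and the build is GRCm38. Annotation, strand setting and treatment of multi-mapped reads: not given in the sources used here. FPKM were also deposited by the authors, equal the count over the library total and 1 gene length (within 1 base for all 33562 genes with a count), and served only to compare levels between genes. Of 53900 features listed, 99 are not mouse genes and were left out. Their counts were 0.

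The analysis used R 4.3.3, edgeR 4.0.16 and limma 3.58.1. edgeR's filterByExpr by group, at a minimum count of 10 and a total of 15, passed 18364 genes. After TMM scaling, 1 robust quasi-likelihood model with a coefficient for each group took in all 18 libraries. P-values are two-sided, adjusted by Benjamini-Hochberg over all tested genes within a comparison, with a threshold of 0.05. The SE is the log2 fold change divided by the square root of F. For WT groups of 1 to 3 counts the text gives the count ratio and its exact 95% interval, and where it held 0 the ratio was taken to 3 counts, as a lower bound. Both cover counting error only. Library totals ran from 19317971 counts, and 3 counts over the WT male group are 0.0259 CPM. On simulated counts the test recovered 98.5% of 200 genes changed 4-fold, over 18090 genes, for the male comparison. Replicates differed by more than sampling noise (chi-square per degree of freedom at least 19.9).

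The members and the gene lists were chosen with earlier results of these data known. Members are given by library where they passed a genotype or interaction test, are Ccl4, Ccl7, Ccl8 or Ccr7, or are among the 8 of highest mean FPKM. Other tested members are given by group, and of other lists the genes that passed, or the 4 of smallest p where more than 5 did. Of 6 eosinophil markers 5 were found in the table. Samples share replicate numbers across genotypes. The deviations of same-numbered libraries from their group means correlated at 0.110 to 0.418 in females, every pair over 0.1. In males they correlated at -0.249 to 0.189. Female WT libraries 3 and 4 correlated best with S64F/+ libraries 2 and 5. The reported model pairs no libraries, and the replicate block took the number as a pairing in both sexes. No label states a pairing. Alternatives were scaling by library totals, DESeq2 1.42.0, no filter, a stricter filter, the 2 groups alone, the replicate block and leaving out each library. Promoters are RefSeq's. Of the members and macrophage markers, 1 each is counted but not reported here.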

Additional observations from a re-analysis of the deposited data

Results flagged for a closer look

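For 14 of 100 gene and group combinations, 1 library stood apart from the rest of its group by Dixon's criterion. For normally distributed values chance gives about 1 in 20, or 5.0. The CPM were not transformed and some were 0, so that rate need not apply here. Ccl25 was at 11.7 CPM in WT male library 2 (next 4.41) and 16.7 CPM in S64F/+ male library 3 (next 4.29). Ccl5 was also high in WT male library 2, at 0.674 CPM. In S64F/+ female library 1 Ccl6 was at 4.20 CPM. Ccl2 was at 0.499 CPM in WT male library 3 and 0.914 CPM in S64F/+ female library 3. Cxcl16 was at 10.1 CPM in WT female library 3, and Cxcl10 at 1.27 CPM in S64F/+ male library 4. Ccr2 was low in WT male library 3, at 1.36 CPM, and high in WT female library 2, at 1.83 CPM. For Ccl8, the high libraries were WT male 3 at 0.0333 CPM, WT female 4 at 0.0474 CPM and S64F/+ female 4 at 0.154 CPM, and for Cxcr2 WT male 1 at 0.111 CPM. In WT males these rest on 1 count of Ccl8 and 2 of Cxcr2.

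The genotype effect differed between the sexes by the interaction test for Ccl11, with a male minus female difference of 2.64 on the log2 scale. For Ccl4 the difference was -2.68. Both calls were close to the threshold (adjusted p = 0.0478 and 0.0470), and each was lost in 14 of 18 fits with 1 library left out.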

How the results depend on the processing

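Without a filter on low counts 0 members passed the interaction test in edgeR, as more genes were tested (Ccl11 0.0939 and Ccl4 0.0786 as adjusted p). Under the other settings the numbers of members called in either direction together stayed within 1.5 times of the reported ones. By direction, the stricter filter, under which 18 members were tested, gave 10 rises in males (reported 16) and 4 members higher in S64F/+ males than in S64F/+ females (reported 7), where DESeq2 gave 11 and library-size scaling 12, and DESeq2 gave 2 lower calls in the interaction (reported 1). Leaving out 1 library gave 12 to 20 calls in males, with 12 without male S64F/+ replicate 3, and 6 to 11 in females, 0 to 3 for the interaction, 0 between WT sexes and 7 to 12 between S64F/+ sexes. Ccr7 and Cxcr2 passed the filter in 9 and Ccl7 in 17 of those 18 fits. Without a filter the calls of Ccl22, Ccl6, Ccr7 and Ccl28 ended in males and that of Ccl11 in females. That fit added Cxcl5 and Cxcr6, which did not pass the reported filter, as higher in S64F/+ than in WT males. Between S64F/+ sexes it added Cxcl5 as higher in males and ended the call of Cxcr2. The replicate block gave 16 calls in males, where the numbers share nothing that was shown to pair the libraries, 8 in females and 2 for the interaction. In males it ended the calls of Ccl22, Ccr1, Ccl6 and Ccr7 and added Ccr2. In females it changed 4 calls, among them those of Ccl6, Cxcl12 and Cxcl2, and no paired analysis was possible for the sex comparisons because the libraries of different sexes share only a number. Estimates that changed sign, none of them called, were Cxcl10 in females (0.37 with the replicate block), Ccl3 in females (-0.011 with the block), and the interaction of Ccl6 (0.21 with the block) and Ccr1 (0.034 with library-size scaling). With 1 library left out, estimates spanned -0.084 to 1.24 for Cxcl13 and -0.63 to 0.79 for Ccl25 in males, -0.58 to 0.81 for Cxcl10, -0.99 to 0.18 for Ccl7 and -0.20 to 0.41 for Ccl3 in females, and -0.64 to 0.48 for Ccl6 and -0.38 to 0.12 for Ccr1 in the interaction. The cause was not tested. Scaling by library totals moved the median of all genes by 0.22 in males, 0.24 in the interaction, 0.18 between S64F/+ sexes and -0.02 in females, and no member called in males changed direction under it. Low counts limit Ccl7, Ccl8, Cxcr2 and the 19 members that were not tested.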

Other observations

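Platelet chemokines, which the symbol rule does not cover, followed single libraries and not the groups. Ppbp (pro-platelet basic protein) was at 2.21 CPM in WT male library 1 and 1.40 CPM in S64F/+ female library 1, and at 0.208 CPM or less in the other 16 libraries. Pf4 (platelet factor 4) was at 0.940 CPM in WT male library 1, 1.03 CPM in S64F/+ female library 1 and 1.25 CPM in S64F/+ female library 3, and at 0.500 CPM or less in the rest. S64F/+ female library 1 was also the highest of its group for Ccl6 and Ccr1, and WT male library 1 was the lowest of its group for Cxcl12, Cxcl16 and Cxcr4.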
